A study of Mus musculus with 2 samples.

Results

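Mouse mitochondrial DNA (mtDNA) carries 13 protein-coding genes, and 7 of them encode subunits of respiratory complex I. Ordered by place in the complex these are mt-Nd1, mt-Nd3, mt-Nd6 and mt-Nd4l near the ubiquinone site, and mt-Nd2, mt-Nd4 and mt-Nd5 along the proton path. They were taken by symbol, and all 7 were found among the 32285 genes of the count matrices. Their transcripts were counted by unique molecular identifiers (UMIs) in 2 droplet single-cell RNA-seq (scRNA-seq) libraries of whole retina, dissociated with trypsin and papain, from male C57BL/6J mice at 7 months of age: 1 library of WT mice and 1 of mice with an mtDNA mutation in ND6, here called the ND6 library. In the study's account the mutation was present in all mtDNA copies throughout the body, the line came from fusion of female embryonic stem cells, and the groups came from separate matings, with the mutation carried on through the mothers. The number of mice per library is not given in the sources used here. With 1 library per genotype there is no replicate and no test: genotype and library cannot be told apart, and each interval given here is an exact 95% interval that covers counting error only.

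Complex I takes electrons from NADH, passes them to ubiquinone and pumps protons across the inner mitochondrial membrane. Its mtDNA-encoded subunits all lie in the membrane arm. ND2, ND4 and ND5 are the antiporter-like subunits that make up most of the proton path, and ND1, ND3, ND4L and ND6 sit between them and the ubiquinone site, with ND1 forming much of the ubiquinone entry. Both mtDNA strands are transcribed as long precursors that are cut, largely at the transfer RNAs, into single mRNAs. ND6 is the only protein-coding gene read from its strand, and ND4L and ND4 stay together on one mRNA. Photoreceptors, the most numerous cells of the mouse retina, are dense in mitochondria.

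All 7 genes lie on chromosome M, and their positions are those of GENCODE vM21 on GRCm38 (mm10), whose gene identifiers all matched those in the files. mt-Nd1 spans 2751 to 3707, mt-Nd2 3914 to 4951, mt-Nd3 9459 to 9806, mt-Nd4l 9877 to 10173, mt-Nd4 10167 to 11544 and mt-Nd5 11742 to 13565, all on the plus strand. mt-Nd6 spans 13552 to 14070 on the minus strand. Each is a single exon. The study's mutation is a G-to-A change on the plus strand at position 13997, which falls at base 74 of the mt-Nd6 transcript (C74T, counted from 1 at its start) and turns codon 25 from CCT to CTT (P25L). UMI counts hold no base calls, so mt-Nd6 counts do not check the genotype of either library. The reference sequence around the mutated codon, from bases 43 to 105 of the mt-Nd6 coding sequence (chrM:13966-14028, minus strand), is printed in lower case with codon 25 in capitals because it is the change that separates the groups.
mt-Nd6, bases 43 to 105: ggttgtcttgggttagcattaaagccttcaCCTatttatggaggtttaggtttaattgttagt

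A pair of overlaps bears on how far the counts of neighbours can be separated. mt-Nd4l and mt-Nd4 share 7 bases in different reading frames on the same strand, and mt-Nd5 and mt-Nd6 share 14 bases on opposite strands. How strand was used in the counting is not given in the sources used here, so reads across the mt-Nd5 and mt-Nd6 ends cannot be assigned with certainty. The ends of these genes are printed with the shared bases in capitals (chrM:10114-10173 and chrM:10167-10226, plus strand, then chrM:13506-13565, plus strand, and chrM:13552-13611, minus strand).
mt-Nd4l, end: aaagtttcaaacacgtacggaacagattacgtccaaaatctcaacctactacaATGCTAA
mt-Nd4, start: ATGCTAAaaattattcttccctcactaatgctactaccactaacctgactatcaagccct
mt-Nd5, end: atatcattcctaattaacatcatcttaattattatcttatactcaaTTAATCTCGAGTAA
mt-Nd6, end: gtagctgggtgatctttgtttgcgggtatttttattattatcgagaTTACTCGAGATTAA

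The matrices held 77958836 UMIs in the WT library and 80358255 in the ND6 library. Barcodes with over 400 UMIs and over 200 genes numbered 23176 and 22256. The study's limit of 20% mtDNA UMIs then removed 10647 WT barcodes (45.9%) and 3861 ND6 barcodes (17.3%), which left 12529 WT and 18395 ND6 cells with 4463616 and 4416350 mtDNA UMIs, and a median of 1878 and 1416 UMIs per cell. The libraries shared 59 barcodes among these cells, 0.471% of WT and 0.321% of ND6 cells. All 10 rod markers were detected in both retina libraries, and rod RNA was present in every class of cell: the summed level of these markers ranged from 18497 CPM in WT amacrine-like cells to 81166 CPM in ND6 red blood cell-like cells among the named classes other than rods.

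The mutated gene, mt-Nd6, had the fewest counts of the 7. It had 2442 UMIs in WT cells and 1684 in ND6 cells, which is 0.0547% (0.0526 to 0.0569) and 0.0381% (0.0363 to 0.0400) of mtDNA UMIs. The intervals did not overlap, and the log2 ratio of the share, ND6 over WT, was −0.52 (−0.61 to −0.43). Per kilobase of gene, mt-Nd6 stood at 86.3 CPM in WT and 51.5 CPM in ND6 cells. The gene it overlaps on the other strand, mt-Nd5, was next lowest at 651 and 409 CPM per kilobase.

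On that per-length scale the order of the genes differed between the libraries. In WT cells mt-Nd3 was highest at 6259 CPM per kilobase (6223 to 6294), ahead of mt-Nd1 at 5675 (5655 to 5696). mt-Nd2 and mt-Nd4 followed at 4105 and 4100, with overlapping intervals, and mt-Nd4l stood at 2121. In ND6 cells mt-Nd1 was highest at 5440 CPM per kilobase (5421 to 5458), followed by mt-Nd3 at 3888, mt-Nd4 at 3378, mt-Nd2 at 3196 and mt-Nd4l at 915, and no neighbouring intervals overlapped. These values are levels of 3′ tags, so they also hold how well each mRNA's end was captured. Such tags do not grow in number with gene length, so dividing by length raises short genes such as mt-Nd3. By CPM without that division, mt-Nd4 (5650) and mt-Nd1 (5431) led in WT cells and mt-Nd3 stood at 2178. The order by CPM in ND6 cells was the same except that mt-Nd1 came before mt-Nd4.

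As a share of mtDNA UMIs, 6 of the 7 genes were lower in ND6 cells and 1, mt-Nd1, was higher. Shares are tied to each other, since they sum to 100% over the 13 genes. Among the subunits next to the ubiquinone site, mt-Nd1 made up 6.63% of mtDNA UMIs in WT and 7.42% in ND6 cells (log2 ratio 0.16, 0.15 to 0.17). mt-Nd3, whose product has a flexible loop near the ubiquinone site, made up 2.66% and 1.93% (log2 ratio −0.46, −0.48 to −0.45). mt-Nd4l, the smallest of the 7, had 34345 UMIs in WT and 17099 in ND6 cells, or 0.769% and 0.387% of mtDNA UMIs, and the largest log2 ratio of the 7 in size, −0.99 (−1.02 to −0.96). It shares an mRNA with mt-Nd4, whose log2 ratio was −0.057. The mt-Nd4l counts are therefore not read as the level of a separate mRNA, and why the 2 genes differ was not tested.

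The antiporter-like subunits differed less, apart from mt-Nd5. mt-Nd4 made up 6.90% of mtDNA UMIs in WT and 6.64% in ND6 cells, a log2 ratio of −0.057 (−0.064 to −0.050). mt-Nd2 made up 5.21% and 4.73%, a log2 ratio of −0.14 (−0.15 to −0.13), which was −0.057 when barcodes of all mtDNA percents were weighted as in the WT library. mt-Nd5, which encodes the most distal antiporter-like subunit, made up 1.45% and 1.06%, a log2 ratio of −0.45 (−0.47 to −0.43). Summed, the 7 genes were 23.7% of mtDNA UMIs in WT and 22.2% in ND6 cells, a log2 ratio of −0.093 (−0.097 to −0.089), so the sum differed far less than mt-Nd3, mt-Nd4l, mt-Nd5 or mt-Nd6. With the same weights the sum's log2 ratio was −0.038.

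**Figure D1:**
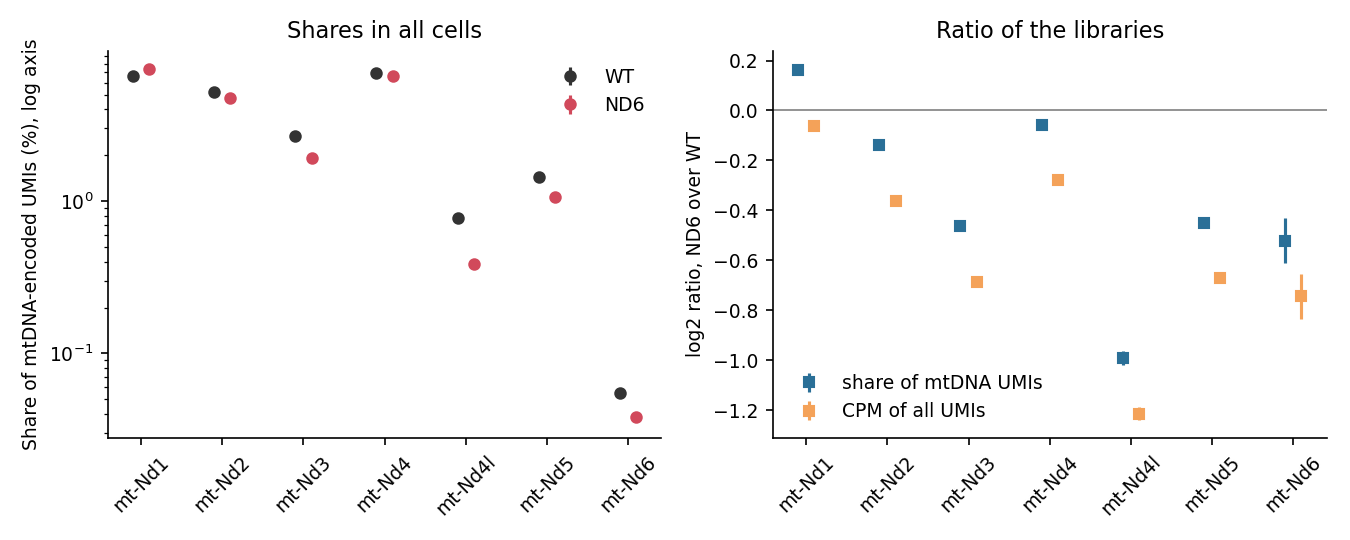
Share of mtDNA UMIs of each mt-Nd gene in WT and ND6 cells on a log axis, and the log2 ratio of ND6 over WT for the share and for CPM, with exact 95% counting intervals. mt-Nd1 lies above 0 by share at 0.16 and below 0 by CPM at −0.061, and mt-Nd4l lies lowest on both scales.

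Relative to all UMIs of the cells, every one of the 7 genes was lower in the ND6 library. So were the other 6 mtDNA-encoded genes, with log2 ratios from −0.12 for mt-Co3 to −1.50 for mt-Atp8. All mtDNA-encoded genes together made up 8.19% of UMIs in WT and 7.02% in ND6 cells. CPM, the UMIs of a gene scaled to the total UMIs of the same cells, went from 5431 in WT to 5206 in ND6 cells for mt-Nd1 (log2 ratio −0.061), from 4261 to 3318 for mt-Nd2 (−0.36) and from 5650 to 4655 for mt-Nd4 (−0.28). A fold of 1.5 was used to single out larger differences. The genes that were lower by at least that fold were 4 of the 7: mt-Nd3 at 2178 and 1353 CPM (−0.69), mt-Nd4l at 629.9 and 271.6 CPM (−1.21), mt-Nd5 at 1187 and 745 CPM (−0.67), and mt-Nd6 at 44.8 and 26.8 CPM (−0.74). None was higher by that fold. The number depended on which barcodes were taken: within the 4 bins of mtDNA percent described next, 1, 2, 2 and 2 genes were lower by that fold, mt-Nd4l in each and mt-Nd6 in all but the lowest, and with no mtDNA limit 6 were. mt-Nd3 had CPM log2 ratios between −0.54 and −0.44 in the bins. Each bin limits the mtDNA percent, so CPM there largely follows the share of mtDNA UMIs. Of 15888 genes with at least 20 UMIs, 6.94% were lower by that fold and 18.5% were higher over the kept cells. Their median log2 ratio was 0.067. The shares of all genes past the fold were not computed within the bins or without the limit.

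The libraries differed in how the mtDNA UMIs were spread over barcodes. With no limit on the mtDNA percent, the 4 bins of 0 to 5, 5 to 10, 10 to 20 and over 20% held 1419, 3581, 7529 and 10647 WT barcodes and 4684, 6799, 6912 and 3861 ND6 barcodes. The over-20% bin carried 48.8% of WT and 25.8% of ND6 mtDNA UMIs. Values were therefore taken within each bin, where both libraries had the same range of mtDNA percent by construction.

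Within every bin the same 6 genes had a lower share in the ND6 library and mt-Nd1 a higher one. The mt-Nd4l difference was steady: log2 ratios of −0.94, −1.03, −1.02 and −0.96 from the lowest to the highest bin. mt-Nd3 was as steady, at −0.46, −0.48, −0.46 and −0.45. In the lowest bin mt-Nd4l made up 0.850% of mtDNA UMIs in WT and 0.442% in ND6 barcodes, and in the highest 0.749% and 0.385%.

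Other members moved along the bins. mt-Nd1 made up 6.68, 6.58, 6.66 and 7.11% of mtDNA UMIs in WT bins and 7.15, 7.33, 7.63 and 8.68% in ND6 bins, so its log2 ratio was larger in each successive bin (0.097, 0.16, 0.20 and 0.29). mt-Nd2 made up 5.06, 5.10, 5.30 and 5.67% in WT and 4.29, 4.54, 5.12 and 5.64% in ND6 bins. Its log2 ratio went from −0.24 in the lowest bin to −0.0067 (−0.018 to 0.0045) in the highest, where the interval over all barcodes held 0.

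mt-Nd5 and mt-Nd6 were less even. For mt-Nd5 the log2 ratios were −0.37, −0.50, −0.48 and −0.18, and for mt-Nd4 −0.091, −0.055, −0.047 and −0.033. mt-Nd6 had 286 WT and 342 ND6 UMIs in the lowest bin and a log2 ratio of −0.25 (−0.48 to −0.020) there, against −0.65, −0.53 and −0.76 in the others. The sum of the 7 genes was lower in the ND6 library in 3 of the 4 bins, with log2 ratios of −0.14, −0.11 and −0.058, and stood at 0.0079 (0.0025 to 0.013) above 20%, where it was 24.6% of mtDNA UMIs in WT and 24.7% in ND6 barcodes. By CPM, mt-Nd1 was higher in the ND6 library in all 4 bins, by log2 ratios of 0.11, 0.13, 0.12 and 0.28, although over all cells it was lower. The CPM ratios in the bins largely repeat the share ratios, because each bin limits the mtDNA percent. That percent was 3.30, 7.16, 14.2 and 33.0% in WT and 3.33, 7.05, 13.5 and 32.9% in ND6 bins.

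**Figure D2:**
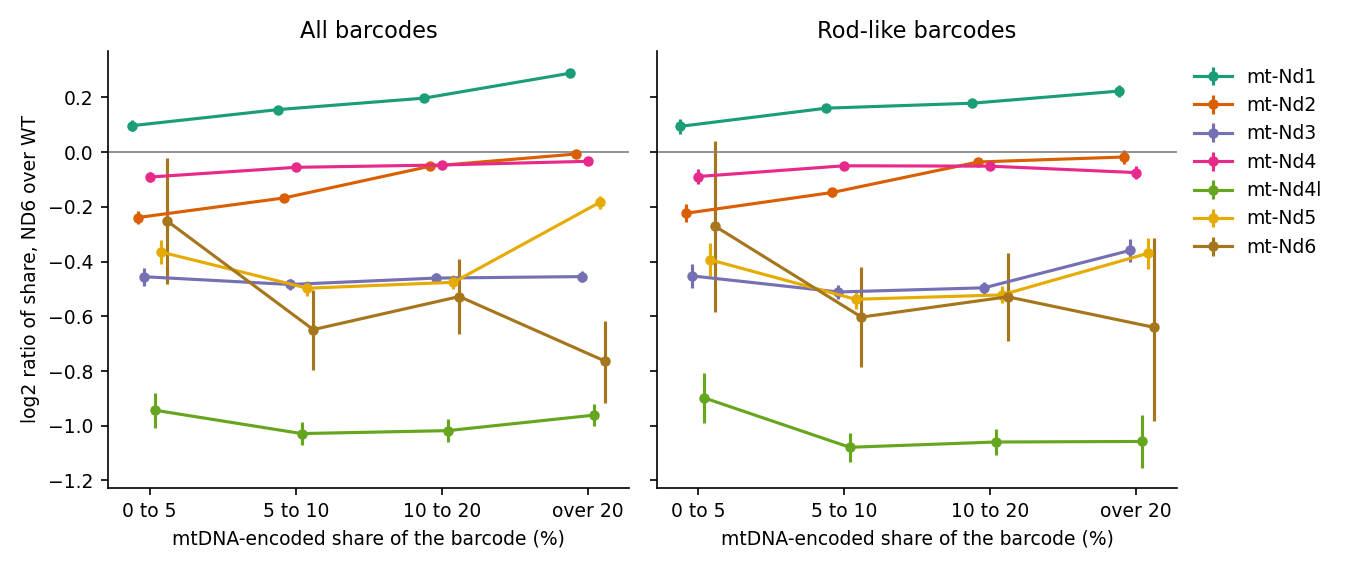
Log2 ratio of each gene's share of mtDNA UMIs, ND6 over WT, in 4 bins of the barcode's mtDNA percent, for all barcodes and for rod-like barcodes, with exact 95% counting intervals. mt-Nd4l stays between −1.03 and −0.94 over all barcodes while mt-Nd1 goes from 0.097 to 0.29 and mt-Nd2 from −0.24 to −0.0067.

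Depth and RNA makeup moved with the bins too. The median UMIs per barcode was 4618 in the lowest and 1014 in the highest bin of the WT library, and 1572 and 791 in the ND6 library. Malat1, a nuclear RNA, made up 4.14% of the nuclear DNA (nDNA)-encoded UMIs in the lowest and 0.751% in the highest WT bin, against 3.74% and 1.34% in the ND6 library. Ribosomal protein mRNAs went from 5.52% to 16.2% and from 6.72% to 16.7%. The part of these in the mt-Nd shares was not tested.

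Rod-like barcodes alone kept the direction of each of the 7 genes in each bin, with other sizes above 20%. The interval held 0 for mt-Nd2 above 20% (−0.043 to 0.0076) and for mt-Nd6 in the lowest bin, at −0.27 (−0.59 to 0.042). Their mt-Nd1 log2 ratios were 0.094, 0.16, 0.18 and 0.22 from the lowest to the highest bin, and those of mt-Nd2 −0.22, −0.15, −0.036 and −0.018. For mt-Nd4l they were −0.90, −1.08, −1.06 and −1.06. Above 20% the mt-Nd5 log2 ratio was −0.37 (−0.43 to −0.31) in rod-like against −0.18 in all barcodes, and that of mt-Nd3 −0.36 (−0.40 to −0.32) against −0.45. The sum of the 7 genes was lower in ND6 rod-like barcodes in all 4 bins (−0.14, −0.11, −0.068 and −0.036). The last of these bins held 4955 WT and 711 ND6 rod-like barcodes, and over all its barcodes the sum stood on the other side of 0. The over-20% barcodes that were not rod-like numbered 5692 and 3150. There mt-Nd1 made up 7.45% and 8.85% of mtDNA UMIs and mt-Nd5 1.44% and 1.27%. Their log2 ratio of the sum was −0.0078 (−0.014 to −0.0015), below 0 as in rod-like barcodes. That of mt-Nd2 was −0.034 (−0.047 to −0.021). The mix of rod-like and other barcodes above 20% differed between the libraries, and its part in the pooled values was not tested.

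Barcodes with 10 to 100 UMIs, far below the limit for cells, showed part of the pattern. mt-Nd4l made up 0.814% (0.729 to 0.906) of their mtDNA UMIs in the WT and 0.377% (0.315 to 0.448) in the ND6 library, and mt-Nd1 6.68% and 7.55%. The mt-Nd4l log2 ratio was −1.11 (−1.42 to −0.81), an interval that holds the value in cells. mt-Nd2 had a log2 ratio of 0.035 (−0.051 to 0.12) and mt-Nd3 one of −0.27 (−0.42 to −0.12), nearer to 0 than in cells.

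Cells were then grouped by markers into 8 named classes and 1 cluster that stayed unnamed. Rod-like clusters were named in a later step, from at least 3 rod markers raised over the named clusters other than cones. The rod-like clusters led by Rp1 and by March1 had 0 rod markers among their 10 leading genes. The rod-like class held 9949 WT and 13424 ND6 cells, cone-like 618 and 1110, bipolar-like 233 and 639, amacrine-like 95 and 368, Müller-like 36 and 89, macrophage- or microglia-like 257 and 141, retinal pigment epithelium (RPE)-like 322 and 949, and red blood cell-like 215 and 438. The unnamed cluster of 804 and 1237 cells was led by Nefl and Glul. The amacrine-like cluster also had raised retinal ganglion cell markers, and 1 of the macrophage- or microglia-like clusters was led by the immunoglobulin gene Igkc. The names were rebuilt here and may differ from those of the study.

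The share of mt-Nd1 was higher in ND6 cells in 8 of 8 classes, with every interval above 0 and log2 ratios from 0.16 to 0.21. It was 5.98% in WT and 6.77% in ND6 cone-like cells, the lowest class in each library, and 8.02% and 9.14% in amacrine-like cells, the highest in each. In rod-like cells it was 6.69% and 7.48%. The spread of mt-Nd1 between classes of 1 library, a log2 range of 0.42 in WT, was thus wider than its difference between libraries.

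mt-Nd3, mt-Nd4l and mt-Nd5 were lower in ND6 cells in 8 of 8 classes with every interval below 0. mt-Nd3 log2 ratios ran from −0.52 in red blood cell-like to −0.26 in bipolar-like cells, and those of mt-Nd5 from −0.57 in red blood cell-like to −0.27 in amacrine-like cells. mt-Nd4l ran from −1.72 (−2.15 to −1.32) in Müller-like to −0.77 (−0.95 to −0.58) in RPE-like cells. The Müller-like value rests on 321 WT and 59 ND6 UMIs, and the median depth of that class was 10130 UMIs in the WT and 1645 in the ND6 library. In rod-like cells mt-Nd4l made up 0.776% and 0.383% of mtDNA UMIs, a log2 ratio of −1.02 (−1.05 to −0.99).

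mt-Nd2 was lower in 8 of 8 classes, with the Müller-like interval (−0.18 to 0.038) holding 0 and the lowest log2 ratio, −0.21, in cone-like cells. mt-Nd4 was lower in 7 of 8 and its interval held 0 in 3, among them the macrophage- or microglia-like class at 0.046 (−0.042 to 0.13). For mt-Nd6 the depth per class was too low to give a direction in most: it was lower in 5 of 8 classes, and the interval held 0 in 5. The rod-like, cone-like and bipolar-like classes, with 1750, 320 and 70 WT UMIs of mt-Nd6, were the 3 with an interval below 0, at −0.48, −0.59 and −0.97.

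The sum of the 7 shares was lower in ND6 cells in 8 of 8 classes, by log2 ratios between −0.10 and −0.031. It was lowest in bipolar-like cells of the WT library (22.1%) and cone-like cells of the ND6 library (20.9%), and highest in amacrine-like cells of both (25.9% and 24.6%). By CPM the sum was lower in 7 of 8 classes. The Müller-like class differed, with 12306 CPM in WT and 15550 CPM in ND6 cells, a log2 ratio of 0.34 (0.29 to 0.39). That class was not named under every alternative clustering. Rod RNA bears on how separate the classes are: the 10 rod markers summed to 77844 CPM in WT and 83568 in ND6 rod-like cells, to 71389 and 81166 in red blood cell-like cells and to 59961 and 67693 in cone-like cells. The red blood cell-like class, which holds the lowest mt-Nd3 and mt-Nd5 ratios, thus had nearly the rod level of rod RNA, and its agreement in direction with rods is no separate result. In bipolar-, Müller-, macrophage- or microglia- and RPE-like cells they summed to between 29111 (WT RPE-like) and 43369 CPM (WT Müller-like). How far rod RNA made up the agreement of these and the cone-like cells was not tested. The lowest levels were in amacrine-like cells, at 18497 and 28142 CPM, where mt-Nd1, mt-Nd3, mt-Nd4l and mt-Nd5 had log2 ratios of 0.19, −0.50, −0.83 and −0.27.

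**Figure D3:**
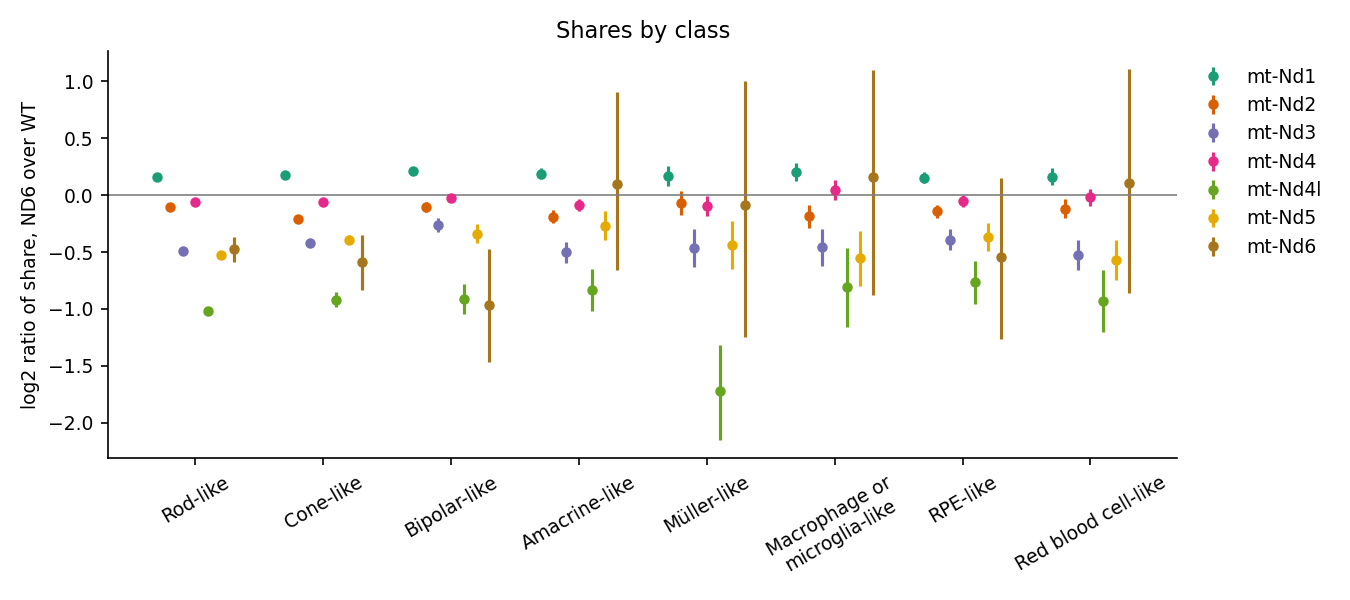
Log2 ratio of each gene's share of mtDNA UMIs, ND6 over WT, in the 8 named classes of cells, with exact 95% counting intervals. mt-Nd1 lies above 0 in every class, mt-Nd3, mt-Nd4l and mt-Nd5 below 0 in every class, and the mt-Nd6 intervals are widest and hold 0 in 5 classes.

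Ratios between neighbours do not depend on the other mtDNA genes. mt-Nd4l and mt-Nd4, which share an mRNA, were counted at 11.1 (11.0 to 11.3) mt-Nd4l UMIs per 100 mt-Nd4 UMIs in WT and 5.84 (5.75 to 5.93) in ND6 cells. The ratio ran over the 8 classes from 9.81 to 11.7 in WT and from 3.78 to 6.02 in ND6 cells, so every WT class lay above every ND6 class. It ran over the 4 bins from 10.7 to 12.2 and from 5.50 to 6.75, and was 11.1 and 5.42 in barcodes with 10 to 100 UMIs.

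The other pair on a shared mRNA, mt-Atp8 and mt-Atp6 of ATP synthase, differed the same way, with 1.69 mt-Atp8 UMIs per 100 mt-Atp6 in WT and 0.694 in ND6 cells. mt-Nd3, counted against its neighbour mt-Co3, gave 15.0 and 10.2 per 100. mt-Nd1, counted against mt-Nd2, the next mt-Nd gene on the strand, gave 127 (127 to 128) and 157 (156 to 158) per 100. The opposite-strand pair gave 3.77 (3.62 to 3.93) mt-Nd6 UMIs per 100 mt-Nd5 in WT and 3.59 (3.42 to 3.77) in ND6 cells, with overlapping intervals. They overlapped in the 3 bins up to 20% as well, but above 20% the ratio was 3.51 (3.36 to 3.67) and 2.35 (2.13 to 2.58), and with no limit 3.65 (3.54 to 3.76) and 3.23 (3.09 to 3.38). Over the 8 classes it was lower in ND6 cells in some and higher in others, but the intervals of the libraries overlapped in each, so no direction is given. The log2 ratio ran from −0.63 in bipolar-like to 0.71 in macrophage- or microglia-like cells. These values rest on 70 WT and 71 ND6 mt-Nd6 UMIs and on 37 and 13.

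**Figure D4:**
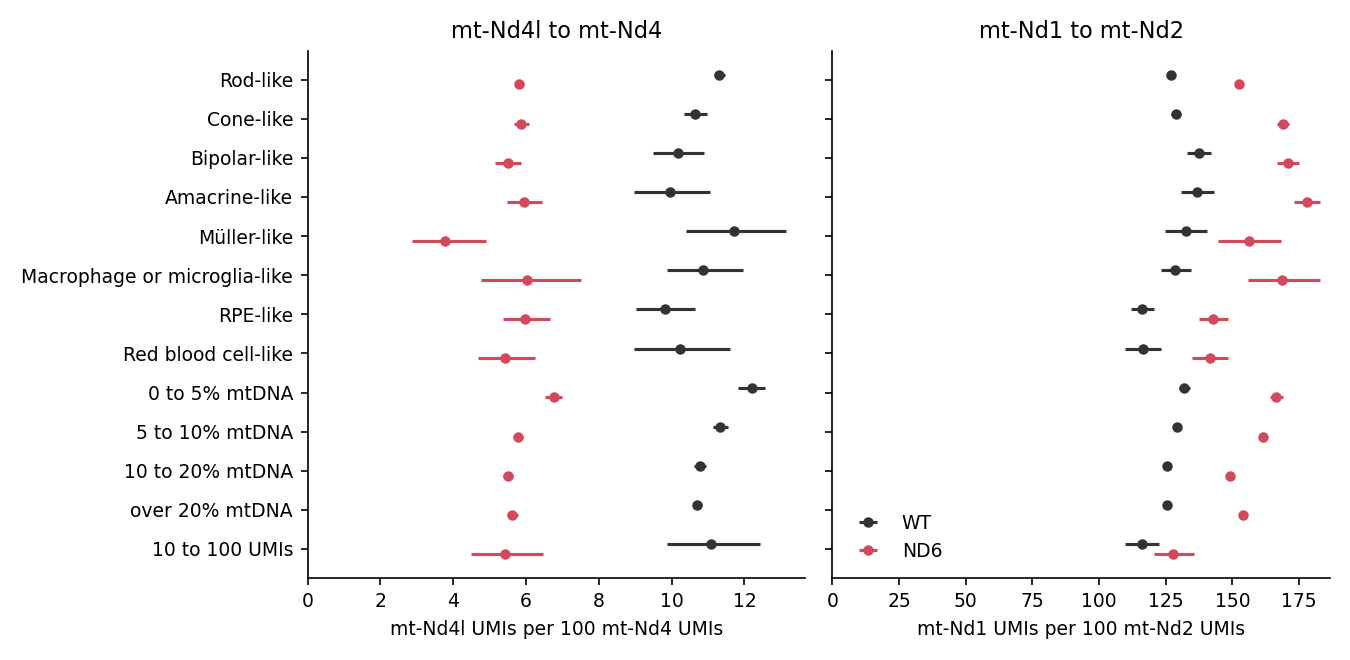
UMIs of mt-Nd4l per 100 of mt-Nd4 and of mt-Nd1 per 100 of mt-Nd2 in the named classes, the mtDNA percent bins and barcodes with 10 to 100 UMIs, WT and ND6, with exact 95% counting intervals. For mt-Nd4l the WT points lie between 9.81 and 12.2 and the ND6 points between 3.78 and 6.75.

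Single cells overlapped widely for most members. Over the 7451 WT and 5943 ND6 cells with at least 200 mtDNA UMIs, the median share of mt-Nd1 was 6.60% (quartiles 5.67 to 7.61) in WT and 7.33% (6.27 to 8.48) in ND6 cells. That of mt-Nd3 was 2.51% (1.88 to 3.26) and 1.83% (1.33 to 2.40), and that of mt-Nd4l 0.703% and 0.353%. The median mt-Nd6 share was 0 in both. Cells of a library are not replicates, so these quartiles describe the cells and not the genotypes. Counting error in single cells also widens the quartiles, and its part was not separated. The floor of 200 mtDNA UMIs kept 7451 of 12529 WT and 5943 of 18395 ND6 cells.

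By annotated length, shorter mtDNA genes tended to have lower ratios. Over the 13 mtDNA-encoded genes the Pearson correlation of the log2 share ratio with log2 length was 0.71 and the Spearman correlation 0.45, and over the 7 mt-Nd genes they were 0.65 and 0.64, as descriptions of genes that share the same 2 libraries. The lowest ratios were those of the shortest genes, mt-Atp8 of 204 bases (−1.28) and mt-Nd4l of 297 bases (−0.99), followed by mt-Nd6 of 519 bases and mt-Nd3 of 348 bases. Both mt-Atp8 and mt-Nd4l share an mRNA with a longer neighbour, so their annotated lengths are not mRNA lengths. The correlations were not computed without them. Among the longest genes, from mt-Nd1 of 957 bases upward, the ratios did not rise with length. They were 0.16 for mt-Nd1, −0.14 for mt-Nd2 (1038 bases) and 0.052 for mt-Cytb (1144). For mt-Nd4 (1378 bases), mt-Co1 (1545) and mt-Nd5, the longest at 1824, they were −0.057, −0.13 and −0.45. For nDNA-encoded protein-coding genes, those with at least 500 UMIs over both libraries were taken. Their median CPM log2 ratio was highest for the shortest: 0.11 over 85 genes of up to 600 bases, 0.060 over 425 of up to 1000, −0.020 over 1865 of up to 2000, −0.036 over 3789 of up to 4000 and 0.038 over 3552 longer genes. Runs of A inside a gene also differ between members, from 3 runs of at least 6 A in mt-Nd2 to none in mt-Nd3, mt-Nd4l and mt-Nd6, whose longest were 5, 4 and 3. Their part was not tested.

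**Figure D5:**
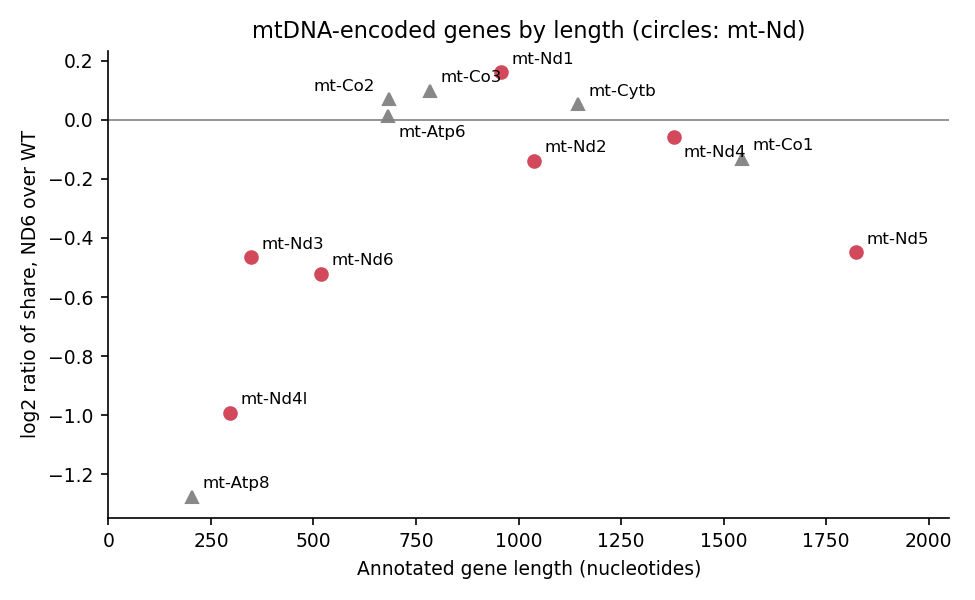
Log2 ratio of the share of mtDNA UMIs, ND6 over WT, against gene length in bases for the 13 mtDNA-encoded genes, with the 7 mt-Nd genes marked. mt-Atp8 and mt-Nd4l, the shortest, lie lowest at −1.28 and −0.99, and mt-Nd5, the longest, lies at −0.45.

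The nDNA-encoded subunits of complex I differed from the mt-Nd genes in sign. Of 36 structural genes tested, 34 had a higher and 2 a lower CPM in ND6 cells, beside 9011 higher and 6877 lower among the 15888 genes tested. Past 1.5-fold were 0 of the 36 either way, beside 18.5% of all genes tested that were higher and 6.94% lower. That background is unlike the 36 in depth. It takes genes from 20 UMIs over both libraries, while each of the 36 had at least 3632 UMIs in WT and 4572 in ND6 cells. The median log2 ratio of the 36 was 0.17, against 0.067 over all genes tested. Over 9716 nDNA-encoded protein-coding genes with at least 500 UMIs the median was −0.00019. The 6 genes of the ND5 module had the highest median (0.32) and the 5 of the ND2 module and 4 of the ND1 module the lowest (each 0.12). Ndufv3, an accessory subunit of the NADH-binding arm, had 294.6 CPM in WT and 415 in ND6 cells (0.50), and Ndufb9, of the distal membrane arm, 385 and 533 CPM (0.47). Ndufa3 (−0.11) and Ndufab1 (−0.040), the mitochondrial acyl carrier protein, were the 2 with a lower CPM.

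Complex I assembly factors were low and mixed. Of 17 tested, 6 had a higher and 11 a lower CPM, with a median log2 ratio of −0.20, against 0.067 and more higher than lower genes over all genes tested. Past 1.5-fold was 1 factor each way, beside 18.5% of all genes tested that were higher by that fold and 6.94% lower. These factors were Tmem186, with 12.2 CPM in WT and 18.5 in ND6 cells (0.60), and Ndufaf6, with 23.9 and 15.1 (−0.66). The next lowest was Timmdc1, with 14.8 and 10.7 CPM, and the next highest Nubpl, with 14.6 and 16.7 CPM. Of 18 genes that handle mitochondrial RNA, 7 had a higher and 11 a lower CPM, with a median of −0.16. Beside 6.94% of all genes tested, 3 of the 18 were lower by at least 1.5-fold. These were Pnpt1, a polynucleotide phosphorylase (−0.63), Trmt10c, part of mitochondrial RNase P (−0.61), and Mterf3 (−0.60). The highest ratio was that of Fastk, with 53.1 and 71.3 CPM (0.43). Lrpprc, which with Slirp stabilizes mitochondrial mRNAs, had 53.4 and 64.2 CPM (0.27), and Slirp 110.2 and 114.4 CPM (0.055).

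The genes whose log2 CPM was most like that of the summed mt-Nd genes were sought over 32 points, the 16 clusters in each library, among 10217 genes with at least 500 UMIs. The mt-Nd genes are part of that sum, the abundant ones most, so their own values, from 0.81 for mt-Nd4l to 1.00 for mt-Nd4 (Pearson r), are not read as likeness. Of the other mtDNA-encoded genes, mt-Atp6, mt-Cytb and mt-Co2 had 0.98 each, mt-Co3 0.97, mt-Co1 0.92 and mt-Atp8 0.72. The nDNA-encoded genes closest in pattern were Snhg6, Nudc and Snrpf (each 0.82) and Prelid1 and Phf5a (each 0.81). Points of 1 library share its depth.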

How the data were processed

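Raw UMI counts per gene and barcode were deposited by the authors as whole-barcode 10x 3′ matrices, and the submitters' processing notes name Cell Ranger 3.0.2 and mm10. How strand was handled is not given in the sources used here. No value was normalized before deposit. The study's filter was kept: over 400 UMIs, over 200 genes and no more than 20% of UMIs from mtDNA. No doublet caller was run. Genes were scaled within each library, and the cells of both were clustered together without the mtDNA-encoded genes and the gene lists described (scanpy 1.11.5, 3000 variable genes, 30 principal components, Leiden resolution 1) and named from markers. Shares of mtDNA UMIs have Clopper-Pearson intervals, and ratios of counts exact conditional intervals (SciPy 1.17.1). PCR duplicates are collapsed by UMI. Genes needed 20 UMIs over both libraries to be counted as tested. The calculation was tested on simulated counts. The 7 members, the bins and the gene lists were chosen with earlier results of these data known. The named genes were the members, in each nDNA-encoded list the 2 genes of highest and the 2 of lowest ratio among those with at least 500 UMIs, any count of 5 or fewer, and the 5 nDNA-encoded genes closest in pattern. Slirp, Igkc and Malat1 were named after their values were seen. Sequences were read from the transcript sequences of GENCODE vM21, with positions on GRCm38. Further libraries made in the study were not used here. Alternatives were other filters, thinning, weights, scalings and clusterings.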

Additional observations from a re-analysis of the deposited data

Results flagged for a closer look

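Some mt-Nd values had opposite signs in different groups of barcodes, and none of these differences was tested. The share of the 7 mt-Nd genes had a log2 ratio, ND6 over WT, of 0.0079 in barcodes over 20% mtDNA and was lower in the ND6 library in the other 3 bins. Split by type, the barcodes over 20% gave −0.036 for rod-like and −0.0078 for all others, both lower in the ND6 library. By CPM, mt-Nd1 was higher in ND6 cells in 3 classes with intervals above 0, amacrine-like (0.19), Müller-like (0.60) and RPE-like (0.19), and lower in 3 with intervals below 0. The Müller-like class, of 36 WT and 89 ND6 cells, was also higher for mt-Nd2 (0.37), mt-Nd4 (0.34) and the 7 genes summed (0.34), while each interval off 0 in the other classes lay below it for these. Median depth in that class was 10130 UMIs in the WT and 1645 in the ND6 library, and mtDNA made up 4.99% and 6.75% of its UMIs. The larger unnamed cluster was led by Nefl, a retinal ganglion cell marker, with Glul also among its leading genes, and is not taken as Müller-like. Its CPM log2 ratio of the 7 genes summed was −0.13.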

How the results depend on the processing

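The share of the 7 mt-Nd genes over all cells (log2 ratio −0.093) stayed lower in the ND6 library under every alternative run: −0.078 with no mtDNA limit, −0.085 with cells thinned to 400 UMIs, −0.079 without mt-Nd4l and mt-Atp8, −0.038 with the bins weighted as in WT, −0.081 without the 5% of cells with the most UMIs and −0.32 by CPM. Chosen after seeing the data, ranges of depth gave −0.081 (over 1000 to 3000 UMIs), −0.082 (over 3000 to 10000) and −0.12 (over 10000), and barcodes outside the filter −0.050 (over 100 to 400 UMIs) and −0.056 (at most 200 genes). The CPM sum (−0.32) was −0.38 with median-of-ratios scaling, which shifted every ratio by −0.067, −0.63 with no mtDNA limit, −0.48 as a mean over cells and −0.33 per nDNA-encoded UMI. Within the bins, also chosen after seeing the data, it was −0.13, −0.13, −0.14 and 0.00074, with 1, 2, 2 and 2 genes lower by 1.5-fold in place of 4, and mt-Nd1 turned from −0.061 to 0.11, 0.13, 0.12 and 0.28. The bins limit the mtDNA percent, so CPM there largely follows the share of mtDNA UMIs. Without the limit, where mtDNA made up 12.9% of WT and 8.80% of ND6 UMIs, 6 genes passed that fold. The share of all genes past it was not computed within the bins or without the limit. The median of the nDNA-encoded complex I genes was 0.0997 with median-of-ratios scaling.

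Single values that turned were mt-Nd1 over all cells (−0.061 by CPM), the sum over 20% mtDNA (−0.012 as a mean over cells, −0.036 in rod-like barcodes), mt-Nd6 in amacrine-like cells (−0.039, libraries scaled together) and red blood cell-like cells (−0.18, clustered without the limit), and mt-Nd4 in bipolar-like cells (0.0050, mean over cells) and red blood cell-like cells (0.021, scaled together, and 0.015, mean over cells). The cause was not tested. Of the cell-type values, all of them shares, 235 of 240 kept their sign. No Müller-like class was named when clustering without the mtDNA limit or at Leiden resolution 0.5, so it has no value there. CPM by class was not run under the alternatives. No paired analysis was possible because each genotype had 1 library, so no replicate could be left out either. Depth limits mt-Nd6 most, with 12 to 1750 UMIs per class and library.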
